A study of Homo sapiens with 60 samples.

Results

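Ribosome biogenesis is the work of making ribosomes, and 40 genes of it, MYC among them, are described here in A549 cells treated with herbal extracts. The genes were taken from a fixed list of symbols. All 40 were found among the 60675 gene identifiers of the count table, and all 40 were among the 18228 genes with enough counts to be tested. They comprise MYC, 4 genes of RNA polymerase I transcription, 4 nucleolar scaffold proteins, 4 genes of box C/D and 3 of box H/ACA small nucleolar ribonucleoproteins, 10 genes of small subunit assembly and 14 of large subunit assembly.

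A549 is an established line from a human lung carcinoma, and every library came from it after 24 h. Vehicle had 3 libraries, with 0.1% DMSO according to the sample labels and 2% according to the design text of the series. Yijin-tang, a decoction of several herbs extracted in water, and the single herbs Zizyphi Semen, Longan Arillus, Schisandrae Fructus and Liriopis seu Ophiopogonis Tuber, extracted in ethanol, had 3 libraries at each of 500, 100 and 20 µg/mL. Soshiho-tang, also a decoction extracted in water, had 2 libraries at each of these doses. A further pair of ethanol extracts had 1 library per dose: Aucklandiae Radix was given at 370, 74 and 14.8 µg/mL, and Polygalae Radix at 380, 76 and 15.2 µg/mL. The design text sets the top dose of such extracts at their IC20, and it names a wortmannin control that was not analysed here. It also says that samples which failed for lack of RNA were excluded. The library names carry a set: C1 for vehicle, 8 for both decoctions, 9 for Liriopis and Schisandrae, 10 for Longan and Zizyphi, and 11 for Polygalae and Aucklandiae. Vehicle lay in a set of its own, so in every comparison with vehicle the set and the treatment cannot be told apart. High against low dose of 1 extract, and both extracts of 1 set, are free of this. Nothing in the labels says that replicates were separate cultures, so the spread that p-values rest on is that of these libraries and may be technical.

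In the nucleolus, RNA polymerase I transcribes the long precursor of the ribosomal RNAs. Box C/D particles methylate it, box H/ACA particles convert uridines in it to pseudouridine, and separate sets of assembly factors cleave, fold and export the parts that become the small and the large subunit. MYC is a transcription factor that binds the E-box CACGTG with its partner MAX. It is known for driving genes of ribosome production, and its own transcript and protein turn over fast.

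Library totals ranged from 18002661 to 33831747 counts with a median of 23897182. Counts fell with transcript length in 2 libraries, replicate 3 of the medium dose of Soshiho-tang and replicate 3 of the low dose of Longan. The slope of log2 level on log2 exonic length was taken relative to each gene's median over the 60 libraries. In these 2 libraries it was -0.40 and -0.45 over 9494 genes, against -0.09 to 0.08 in the other 58. The tests below rest on the other 52 replicated libraries. With all 54, the common dispersion was 0.0173 in place of 0.00244 and most of the calls of members were lost. The 6 epithelial keratin and adhesion markers were all expressed (8486 to 8867 CPM summed in vehicle), none of 5 alveolar type II markers reached 1 CPM on average, and the summed fibroblast, leukocyte and endothelial markers of vehicle were at most 43.2, 15.6 and 0.520 CPM. Fewer cells of a type and less RNA per cell cannot be told apart in such bulk libraries.

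The members differed widely in level. Per kilobase of exon, NPM1 stood highest with 468 CPM per kb over the 60 libraries, followed by NCL with 209 and FBL with 138. Both NPM1 and NCL are abundant RNA-binding nucleolar proteins, and FBL (fibrillarin) is the methyltransferase of box C/D particles. MYC lay at 46.6 CPM per kb, near NOP58 with 50.2 and WDR43 with 43.9. POLR1C, a subunit shared by RNA polymerases I and III, was lowest with 4.04. Plain level is given as CPM, which are counts scaled to library totals that were adjusted by TMM over the 60 libraries. By this level the members ran from 19.2 (GAR1) to 1792 (NPM1), so counting noise was small for each of them. NPM1 has 45 annotated pseudogenes named after it and 8 other members have some, so their reads may be split among copies. For 19 members a gene overlaps on the opposite strand and for 6 on the same strand, among them PPAN with the readthrough gene PPAN-P2RY11, and the reads of such pairs cannot be told apart here.

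Of the 40 members, 34 had an entry among the RefSeq promoters (GRCh38.p14; 250 bases before to 50 after the gene start), and 14 of these 34 (41.2%) held the E-box CACGTG, which reads the same on both strands. The share was 30.8% among 91 other ribosome biogenesis genes, 9.90% among 12082 genes tested and 7.43% of all 27305 promoters of this length. Most of the 14 motifs lay within 30 bases of the start. A match of letters is a description and shows no binding. The promoters of 4 members with the motif follow, 5′ to 3′ on the gene's strand with CACGTG in capitals, and then that of NOP56, which lacks it. They are shown because these genes, described below, moved in different ways: FBL (chr19:39846330-39846629, minus strand) was below vehicle in every low dose, GNL2 (chr1:37595888-37596187, minus) fell with Soshiho-tang, UTP20 (chr12:101279855-101280154, plus) differed between sets, WDR43 (chr2:28894417-28894716, plus) was higher with Polygalae Radix, and NOP56 (chr20:2652382-2652681, plus) had the largest fall with Soshiho-tang.
FBL: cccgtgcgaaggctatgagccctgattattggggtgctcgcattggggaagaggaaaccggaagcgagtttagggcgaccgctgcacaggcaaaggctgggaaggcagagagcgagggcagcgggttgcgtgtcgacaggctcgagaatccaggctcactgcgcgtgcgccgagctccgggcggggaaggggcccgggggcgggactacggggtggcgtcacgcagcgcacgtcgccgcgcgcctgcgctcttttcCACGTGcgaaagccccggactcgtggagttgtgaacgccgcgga
GNL2: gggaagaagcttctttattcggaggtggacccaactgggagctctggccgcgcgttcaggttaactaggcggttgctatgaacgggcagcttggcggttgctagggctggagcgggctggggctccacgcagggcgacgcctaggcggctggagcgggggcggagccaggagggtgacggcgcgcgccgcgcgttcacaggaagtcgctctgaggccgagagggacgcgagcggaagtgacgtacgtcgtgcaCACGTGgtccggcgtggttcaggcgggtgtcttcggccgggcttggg
UTP20: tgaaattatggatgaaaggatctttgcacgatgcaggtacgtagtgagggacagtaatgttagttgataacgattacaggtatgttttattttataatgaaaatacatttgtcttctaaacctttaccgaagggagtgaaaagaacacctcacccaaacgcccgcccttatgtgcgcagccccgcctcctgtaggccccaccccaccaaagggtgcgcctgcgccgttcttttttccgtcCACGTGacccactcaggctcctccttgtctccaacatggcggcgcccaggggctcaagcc
WDR43: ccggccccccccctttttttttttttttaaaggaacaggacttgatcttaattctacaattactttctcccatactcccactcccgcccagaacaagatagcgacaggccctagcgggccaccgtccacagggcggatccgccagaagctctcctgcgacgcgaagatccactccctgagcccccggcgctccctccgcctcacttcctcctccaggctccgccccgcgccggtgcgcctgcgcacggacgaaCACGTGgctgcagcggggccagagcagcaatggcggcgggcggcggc
NOP56: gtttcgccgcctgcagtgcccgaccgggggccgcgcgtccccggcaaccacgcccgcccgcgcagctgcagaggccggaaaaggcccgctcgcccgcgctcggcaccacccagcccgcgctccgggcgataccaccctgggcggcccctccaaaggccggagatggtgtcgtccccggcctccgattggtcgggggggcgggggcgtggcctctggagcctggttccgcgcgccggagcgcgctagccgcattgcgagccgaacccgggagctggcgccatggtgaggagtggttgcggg

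In FBL, GNL2 and WDR43 the motif starts 6, 3 and 3 bases after the gene start, and in UTP20 it starts 10 bases before it. Counts of members called stand side by side here, with no test of their difference. Against vehicle, 7 of 14 with it and 12 of 20 without it were lower at the high dose of Soshiho-tang, and 7 of 14 and 11 of 20 at that of Schisandrae Fructus. Of all genes, 11.3% and 4.92% were lower there. In the single libraries of Polygalae Radix, 3 of 14 and 6 of 20 were at least 1.5-fold lower at the high than at the low dose, with median log2 ratios of -0.28 and 0.0081. Of all genes, 17.2% were that much lower. Scaled by total counts, the median of all 40 members moved from -0.10 to 0.25, and the split was not made with that scaling.

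In the replicated extracts the changes in MYC were small. Its level was 145, 139 and 139.8 CPM in the vehicle libraries. At the high dose of Soshiho-tang it was 164 and 152 CPM, at the medium dose 144 CPM in the library used, and at the low dose 145 and 142 CPM. Both high-dose libraries lay above the low-dose and the vehicle libraries. The log2 fold change was 0.14 ± 0.04 (SE) against the low dose (edgeR adjusted p = 0.042) and 0.18 ± 0.04 (SE) against vehicle (edgeR adjusted p = 0.00081). Both calls were lost with all 54 libraries (edgeR adjusted p = 1.0 and 0.7) and without Soshiho-tang high replicate 2 (edgeR adjusted p = 0.52 and 0.12). The call against the low dose was also lost without the filter on low counts (edgeR adjusted p = 0.2) and without either low-dose library (edgeR adjusted p = 0.11 and 0.22).

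With Zizyphi Semen, MYC was 144, 149 and 157 CPM at the high, 135, 140.4 and 142 CPM at the medium and 133, 140.2 and 139 CPM at the low dose. All high-dose libraries lay above the other 6 of the extract, and the lowest of them lay just below the highest vehicle library. The change was 0.10 ± 0.04 (SE) against vehicle (edgeR adjusted p = 0.031), which was lost with all 54 libraries (edgeR adjusted p = 0.82), without the filter (edgeR adjusted p = 0.31), without vehicle replicate 2 or 3, and without Zizyphi high replicate 2 or 3. Against the low dose it was 0.13 ± 0.04 (SE) and did not pass (edgeR adjusted p = 0.072).

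In the other 4 replicated extracts no test of MYC against vehicle or the low dose passed. At the high dose MYC was 149, 139 and 145 CPM with Yijin-tang, 139.7, 142 and 139.8 with Liriopis, 134, 139 and 134 with Schisandrae and 136, 134 and 140.0 with Longan. Yijin-tang replicates 1 and 3 (148.8 and 145.0 CPM) lay above the highest vehicle library (144.8 CPM), and replicate 2 (138.6 CPM) below the lowest (138.7 CPM). With Liriopis, Schisandrae and Longan the values lay within the vehicle range or below it. Low-dose values were 134, 141 and 137 CPM with Yijin-tang, 129.6, 128 and 137 with Liriopis, 137, 136 and 133 with Schisandrae and, in the 2 libraries used, 137 and 140.1 with Longan. At the medium dose they were 138, 148 and 140.1 with Yijin-tang, 134, 143 and 128 with Liriopis, 133, 140.4 and 136 with Schisandrae and 139, 136 and 139 with Longan. Compared directly within set 8, MYC was lower with Yijin-tang than with Soshiho-tang at the high dose (-0.13 ± 0.04 (SE); edgeR adjusted p = 0.041). That call was lost with all 54 libraries (edgeR adjusted p = 1.0), without the filter (edgeR adjusted p = 0.19), without Yijin-tang high replicate 2 or 3 and without Soshiho-tang high replicate 2. The difference between Longan and Zizyphi in set 10 was -0.14 ± 0.04 (SE) and did not pass (edgeR adjusted p = 0.055).

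**Figure D1:**
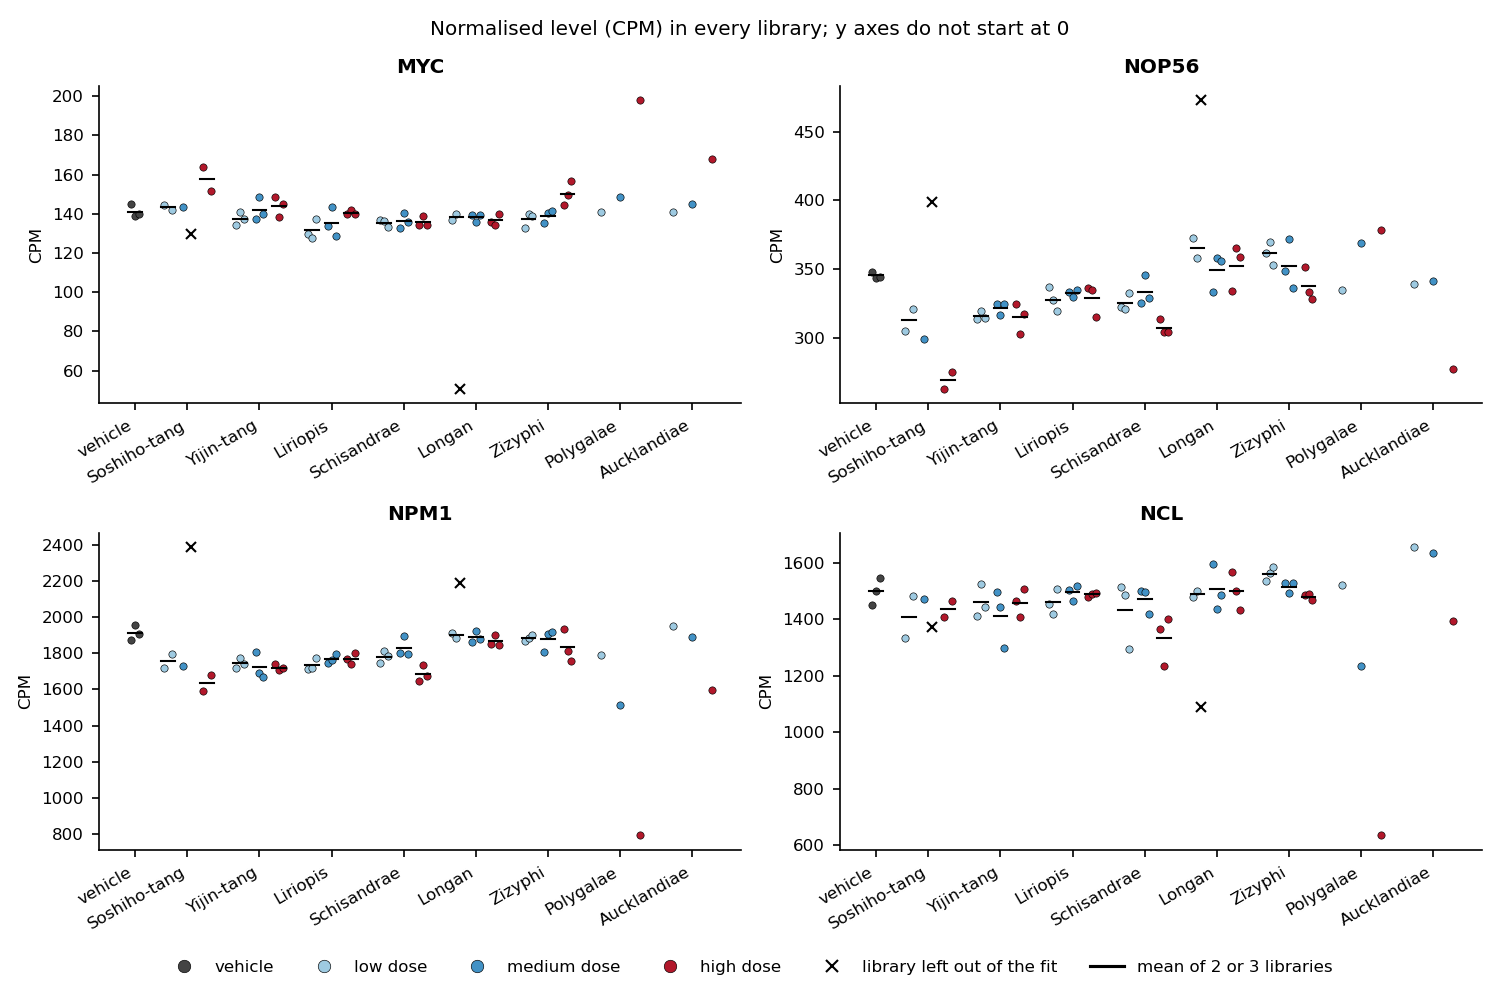
Level (CPM, y axes not from 0) of MYC, NOP56, NPM1 and NCL in each of the 60 libraries, with low, medium and high dose from left to right for each extract. Points are libraries, bars are means of the 2 or 3 libraries used, and crosses are the 2 libraries left out of the tests. MYC stood at 198 CPM in the Polygalae high-dose library, where NPM1 and NCL stood at 792 and 634 CPM, and NOP56 was lowest with Soshiho-tang high at 263 and 275 CPM.

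Among the replicated extracts, Soshiho-tang had the most members called between its high and low dose in the 52 libraries used. Against its own low dose, 6 members fell and MYC rose at the high dose, 7 of 40 against 9.51% of all genes tested. The median log2 change of the members was -0.06, and that of all genes was 0.00. The 6 that fell came from 4 roles: NOP56 of the box C/D particle, the scaffold protein NPM1, UTP15 of the small subunit processome, and GNL2, TEX10 and NOC2L of large subunit assembly. No gene of polymerase I transcription or of the box H/ACA particle was called.

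NOP56, a core protein on which box C/D particles are built, showed the largest fall. It was 263 and 275 CPM at the high dose against 305 and 321 CPM at the low dose and 348, 343 and 344 CPM in vehicle. The 3 groups did not overlap, and the medium library used, at 299 CPM, lay below the low-dose libraries and above the high-dose ones. The change was -0.22 ± 0.04 (SE) against the low dose (edgeR adjusted p = 0.00036) and -0.34 ± 0.04 (SE) against vehicle (edgeR adjusted p = 5.0e-09). With all 54 libraries the first was lost (edgeR adjusted p = 0.39) and the second was kept (edgeR adjusted p = 0.0098).

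UTP15, which helps the first assembly of the small subunit precursor, was 36.1 and 36.3 CPM at the high and 43.3 and 40.9 CPM at the low dose (-0.22 ± 0.06 (SE); edgeR adjusted p = 0.0069). TEX10, part of the complex that processes the spacer ahead of the large subunit RNA, was 47.1 and 45.7 against 52.5 and 53.7 CPM (-0.20 ± 0.05 (SE); edgeR adjusted p = 0.0035). GNL2, a nucleolar GTPase of the large subunit pathway, was 42.2 and 47.2 against 51.0 and 50.9 CPM (-0.19 ± 0.05 (SE); edgeR adjusted p = 0.0075). In each of these 3 genes both high-dose libraries were below both low-dose libraries. NPM1 was 1591 and 1678 CPM at the high and 1721 and 1796 CPM at the low dose, again without overlap (-0.11 ± 0.04 (SE); edgeR adjusted p = 0.043). NOC2L, an assembly factor that travels with the early large subunit, was 109.5 and 111 against 119.6 and 119 CPM (-0.11 ± 0.04 (SE); edgeR adjusted p = 0.046). The groups did not overlap in this gene either.

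NCL, the other abundant scaffold gene, was 1407 and 1463 CPM at the high and 1335 and 1484 CPM at the low dose, values that overlapped. The 33 members not called had log2 changes from -0.13 to 0.12. With all 54 libraries none of the 7 calls stayed, and without the filter on low counts 2 did (NOP56 and UTP15). Leaving out single libraries left 2 to 5 of the members called. The summed fibroblast markers were 34.1 and 37.5 CPM at the high dose against 44.0 and 44.1 CPM at the low dose, and the epithelial sum was 8035 and 8300 against 7826 and 7897 CPM; their part in these changes was not tested.

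Among the other genes of the pathway the direction was mostly the same. Of 104 further ribosome biogenesis genes, 12 fell and 2 rose with Soshiho-tang against its low dose (13.5% called, against 9.51% of all genes). POLR1G, another polymerase I subunit, changed by -0.29 ± 0.07 (SE) (edgeR adjusted p = 0.002) and IMP3, a small subunit processome protein, by -0.23 ± 0.07 (SE) (edgeR adjusted p = 0.043). NOP53 and RSL24D1, both of late large subunit maturation, rose by 0.36 ± 0.05 (SE) (edgeR adjusted p = 7.8e-07) and 0.24 ± 0.05 (SE) (edgeR adjusted p = 0.0018). Of 29 tested MYC targets outside ribosome production, 8 fell, led by the replication helicase subunit MCM4 (-0.28 ± 0.04 (SE); edgeR adjusted p = 1.6e-07) and the uracil-DNA glycosylase UNG (-0.25 ± 0.05 (SE); edgeR adjusted p = 0.00092). In the same list 2 rose, the nucleoside transporter SLC29A2 (0.54 ± 0.10 (SE); edgeR adjusted p = 0.00026) and the transferrin receptor TFRC (0.22 ± 0.06 (SE); edgeR adjusted p = 0.0082). Of 11 genes tested of the MYC and MAX network, MNT, which competes with MYC for MAX, rose by 0.28 ± 0.09 (SE) (edgeR adjusted p = 0.035) and no other was called. With all 54 libraries 2 of the 14 calls among other ribosome biogenesis genes, 1 of the 10 among MYC targets and 0 in the network were kept, and of the genes just named only NOP53 was (edgeR adjusted p = 0.0118).

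The remaining 5 replicated extracts changed few members with dose. With Schisandrae Fructus, NOLC1, a chaperone of small nucleolar particles, was 244, 232 and 253 CPM at the high, 261, 257 and 271 CPM at the medium and 268, 269.8 and 259 CPM at the low dose. The high-dose libraries were below all others of the extract (-0.14 ± 0.03 (SE); edgeR adjusted p = 0.019). It was the 1 member called, against 1.54% of all genes, although 31 of the 40 changes were below 0. With Zizyphi Semen, NOP58, the partner of NOP56 in box C/D particles, was 169, 159 and 153 CPM at the high, 171, 172 and 174 CPM at the medium and 175, 179 and 185 CPM at the low dose. High and low dose did not overlap (-0.17 ± 0.04 (SE); edgeR adjusted p = 0.042), but the high-dose libraries spanned the vehicle values of 159.8, 159 and 159.8 CPM. NOP58 was the 1 member called, against 1.15% of all genes. Both calls were lost with all 54 libraries (edgeR adjusted p = 1.0 for each). NOLC1 was also lost without the filter (edgeR adjusted p = 0.092) or without replicate 1 or 2 of either dose. Without the filter UTP20 was called lower with Schisandrae instead (edgeR adjusted p = 0.0273, and 0.729 with the filter). NOP58 was lost without replicate 2 or 3 of either dose or replicate 1 of the low dose.

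No member passed edgeR's test between high and low dose with Yijin-tang (0.987% of all genes), Liriopis (0%) or Longan (0.0878%). At an unadjusted p under 0.05 there were 2, 3 and 9 members, and DESeq2 called 0 in each. The changes ran from -0.18 to 0.09 with Yijin-tang, from -0.09 to 0.09 with Liriopis and from -0.14 to 0.17 with Longan. Longan had, with all 54 libraries, 6 members lower at the high dose, in a fit that includes its low replicate 3. In the other lists, MPHOSPH10 (-0.21 ± 0.05 (SE); edgeR adjusted p = 0.033) and MAK16 (-0.19 ± 0.04 (SE); edgeR adjusted p = 0.0081) fell with Schisandrae, and with Zizyphi the largest falls were in MPHOSPH10 (-0.22 ± 0.05 (SE); edgeR adjusted p = 0.023) and BRIX1 (-0.18 ± 0.05 (SE); edgeR adjusted p = 0.031). MPHOSPH10 is a protein of the small subunit processome, and MAK16 and BRIX1 act in large subunit assembly. NOP53 rose with Schisandrae by 0.17 ± 0.04 (SE) (edgeR adjusted p = 0.02), as did MXD4, an antagonist of MYC in the MAX network, by 0.24 ± 0.06 (SE) (edgeR adjusted p = 0.023). None of these calls was kept with all 54 libraries.

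The extracts of 1 set were then compared at 500 µg/mL. With Yijin-tang 8 members were higher and MYC was lower than with Soshiho-tang, 9 of 40 against 8.37% of all genes. NOP56 was 324, 303 and 318 CPM with Yijin-tang against 263 and 275 CPM with Soshiho-tang (0.23 ± 0.04 (SE); edgeR adjusted p = 6.2e-05). NOP16, a large subunit factor, was 44.1, 40.7 and 43.4 against 34.9 and 38.7 CPM (0.22 ± 0.06 (SE); edgeR adjusted p = 0.014). PNO1, which prepares the end of the small subunit RNA for its last cleavage, was 66.5, 66.7 and 63.1 against 57.2 and 58.8 CPM (0.18 ± 0.05 (SE); edgeR adjusted p = 0.031). In all 3 genes the Yijin-tang libraries lay above both Soshiho-tang libraries. None of the 9 was called with all 54 libraries, and without the filter 2 were.

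With Liriopis 6 members were higher than with Schisandrae, against 2.97% of all genes, and none was lower. TEX10 was 51.8, 53.4 and 51.8 CPM with Liriopis and 46.2, 46.7 and 47.3 CPM with Schisandrae (0.17 ± 0.04 (SE); edgeR adjusted p = 0.0065). NCL was 1480.4, 1490.2 and 1494 against 1366, 1233 and 1399 CPM (0.17 ± 0.05 (SE); edgeR adjusted p = 0.041). WDR43, a protein of the early small subunit processome, was 184, 179 and 194 against 168, 158 and 178 CPM (0.16 ± 0.04 (SE); edgeR adjusted p = 0.02). No library overlapped between the extracts in these 3 genes, and NOLC1, NOP14 and NOC2L were the others called. None was called with all 54 libraries. Without the filter NCL and WDR43 were, and UTP20 in addition (edgeR adjusted p = 0.000219, and 0.501 with the filter). Schisandrae high replicate 2, the lowest library in NCL and WDR43 but not in TEX10, had a length slope of -0.052. Replicates 1 and 3 had 0.001 and 0.020. The part of this slope in the calls was not tested. Between Longan and Zizyphi edgeR called no member (0.719% of all genes), with 7 at an unadjusted p under 0.05 and 1 called by DESeq2.

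**Figure D2:**
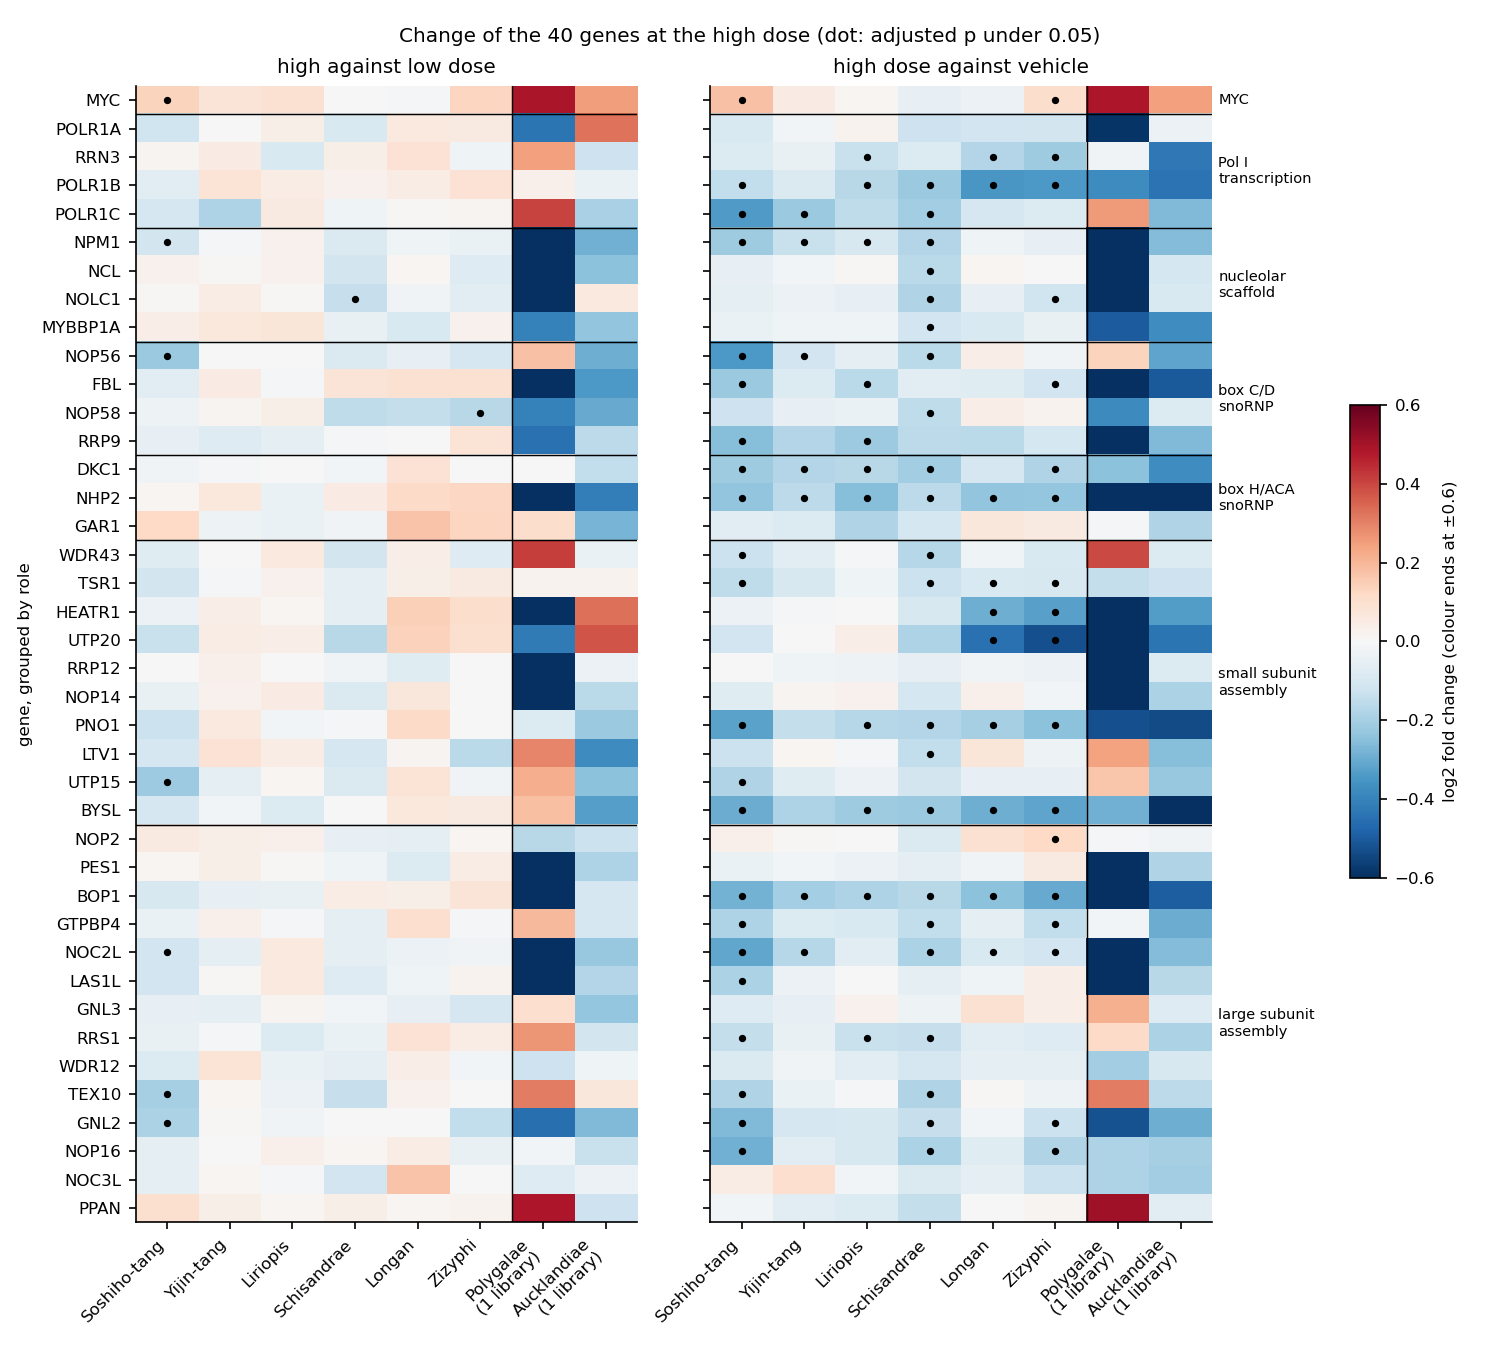
Log2 fold change of each of the 40 genes (rows, grouped by role) at the high dose of 8 extracts (columns), against the low dose on the left and against vehicle on the right. A dot marks an edgeR adjusted p under 0.05, the single libraries of Polygalae and Aucklandiae have no test, and the colour scale ends at 0.6. The left side has dots for 7 genes with Soshiho-tang and 1 each with Schisandrae and Zizyphi, and the right side has 22 each with Soshiho-tang and Schisandrae.

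Against vehicle far more members were called, and nearly all were lower. All these comparisons share the same 3 vehicle libraries. At the high doses of sets 8 and 9 mitochondrial genes took 11.0 to 15.9% of counts against 11.5 to 11.8% in vehicle, and the epithelial sum was 7389 to 8300 CPM, below the vehicle range given above in every library. The part of these shifts in the calls was not tested. Lower members numbered 21 with Soshiho-tang (11.3% of all genes were lower), 22 with Schisandrae (4.92%), 16 with Zizyphi (12.8%), 11 with Liriopis (4.65%), 10 with Longan (8.26%) and 7 with Yijin-tang (4.13%). Higher were MYC with Soshiho-tang (10.2% of all genes were higher), and MYC and NOP2, an RNA methyltransferase of the large subunit pathway, with Zizyphi (9.29%). With all 54 libraries the calls in either direction fell to 5 with Soshiho-tang, 1 each with Longan and Zizyphi and 0 with Schisandrae, Liriopis and Yijin-tang. Leaving out 1 library at a time gave 15 to 21 with Soshiho-tang, 11 to 21 with Schisandrae, 14 to 18 with Zizyphi, 3 to 10 with Liriopis, 6 to 11 with Longan and 4 to 6 with Yijin-tang.

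By role, Soshiho-tang had lower levels in 2 of 4 polymerase I genes, 1 of 4 scaffold genes, 3 of 4 box C/D genes, 2 of 3 box H/ACA genes, 5 of 10 small subunit and 8 of 14 large subunit genes. Behind NOP56 the largest falls were in POLR1C (-0.34 ± 0.07 (SE); edgeR adjusted p = 0.00017), PNO1 (-0.32 ± 0.05 (SE); edgeR adjusted p = 9.7e-06) and NOC2L (-0.31 ± 0.03 (SE); edgeR adjusted p = 1.4e-09). NOC2L was 137, 139 and 139 CPM in vehicle, and its Soshiho-tang values given above are lower than all of them.

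With Schisandrae all 4 scaffold genes were lower than vehicle: NPM1 by -0.18 ± 0.03 (SE) (edgeR adjusted p = 3.1e-05), NOLC1 by -0.18 ± 0.03 (SE) (edgeR adjusted p = 0.00018), NCL by -0.16 ± 0.05 (SE) (edgeR adjusted p = 0.023) and MYBBP1A by -0.12 ± 0.03 (SE) (edgeR adjusted p = 0.016). NPM1 was 1648, 1735 and 1676 CPM with Schisandrae against 1875, 1955 and 1908 CPM in vehicle, and NCL was 1366, 1233 and 1399 against 1449, 1501 and 1545 CPM. Neither pair of groups overlapped. The other roles had 2 of 4 polymerase I genes, 2 of 4 box C/D, 2 of 3 box H/ACA, 5 of 10 small subunit and 7 of 14 large subunit genes lower, and the 4 largest falls were BYSL, a small subunit factor (-0.22 ± 0.06 (SE); edgeR adjusted p = 0.017), POLR1B, the second-largest polymerase I subunit (-0.22 ± 0.05 (SE); edgeR adjusted p = 0.0015), DKC1 (-0.21 ± 0.04 (SE); edgeR adjusted p = 0.00013) and POLR1C (-0.21 ± 0.06 (SE); edgeR adjusted p = 0.015). All 40 fold changes were below 0, with a median of -0.14, against a median of 0.00 for all genes. That the scaffold genes differ between Schisandrae and Soshiho-tang was not tested, since these extracts lie in different sets.

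Among the members called, the 4 largest falls with Yijin-tang were in POLR1C (-0.22 ± 0.06 (SE); edgeR adjusted p = 0.015), BOP1 (-0.21 ± 0.04 (SE); edgeR adjusted p = 0.0018), DKC1 (-0.18 ± 0.04 (SE); edgeR adjusted p = 0.0018) and NOC2L (-0.17 ± 0.03 (SE); edgeR adjusted p = 0.00014). With Liriopis they were in NHP2 (-0.25 ± 0.04 (SE); edgeR adjusted p = 0.00017), RRP9 (-0.22 ± 0.06 (SE); edgeR adjusted p = 0.013), BYSL (-0.21 ± 0.06 (SE); edgeR adjusted p = 0.031) and BOP1 (-0.18 ± 0.04 (SE); edgeR adjusted p = 0.0065). BOP1 works with PES1 and WDR12 in large subunit processing, RRP9 belongs to the U3 particle of the small subunit pathway, and DKC1 and NHP2 are the pseudouridine synthase and a core protein of box H/ACA particles.

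At the low dose, 20 µg/mL, 9 members were lower than vehicle with Soshiho-tang (2.13% of all genes were lower), 8 with Yijin-tang (2.16%), 7 with Liriopis (2.35%), 12 with Schisandrae (3.98%), 16 with Longan (13.9%) and 17 with Zizyphi (14.6%). Higher were 3 with Longan, namely NOP58, NOP2 and GNL3 (11.2% of all genes were higher), and 4 with Zizyphi, which were these and LTV1 (12.1%). NHP2, DKC1 and FBL were called lower in all 6 extracts, as were 146 of the 18228 genes tested (0.801%), and BOP1, NOC2L, PNO1 and POLR1B were called lower in 5. The 6 comparisons share the 3 vehicle libraries and are not independent.

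NHP2 was 104, 108 and 110.4 CPM in vehicle and 88.2 and 89.9 CPM with Soshiho-tang low, 88.5, 93.8 and 91.2 with Yijin-tang, 93.5, 91.8 and 89.0 with Liriopis, 90.2, 89.8 and 97.4 with Schisandrae, 83.5 and 83.8 with Longan and 82.0, 81.6 and 85.6 with Zizyphi. Every one of these 16 low-dose libraries was below every vehicle library. Its log2 changes ran from -0.35 to -0.20, those of DKC1 from -0.20 to -0.16 and those of FBL from -0.20 to -0.13. FBL was 326, 333 and 327 CPM in vehicle and 283, 292 and 312 CPM with Schisandrae low, the extract whose low-dose libraries came closest to vehicle. These 3 genes were thus lower in sets 8, 9 and 10 than in C1. In the 52 libraries used, none of the 3 was called between high and low dose in any of the 6 extracts. With all 54 libraries the low-dose calls fell to 0 with the 4 extracts of sets 8 and 9 and to 3 with Zizyphi; Longan then had 10, and its DKC1, NHP2 and FBL turned to values above vehicle (0.31, 0.28 and 0.17). In its left-out low replicate 3, NHP2 was 211 CPM. Over the 40 members the low-dose log2 change and log2 exonic length had a Pearson r of 0.52 with Soshiho-tang, 0.49 with Liriopis, 0.38 with Schisandrae, 0.28 with Yijin-tang, -0.05 with Longan and -0.07 with Zizyphi, a description over genes that share their libraries. The part of transcript length in these calls was not tested.

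**Figure D3:**
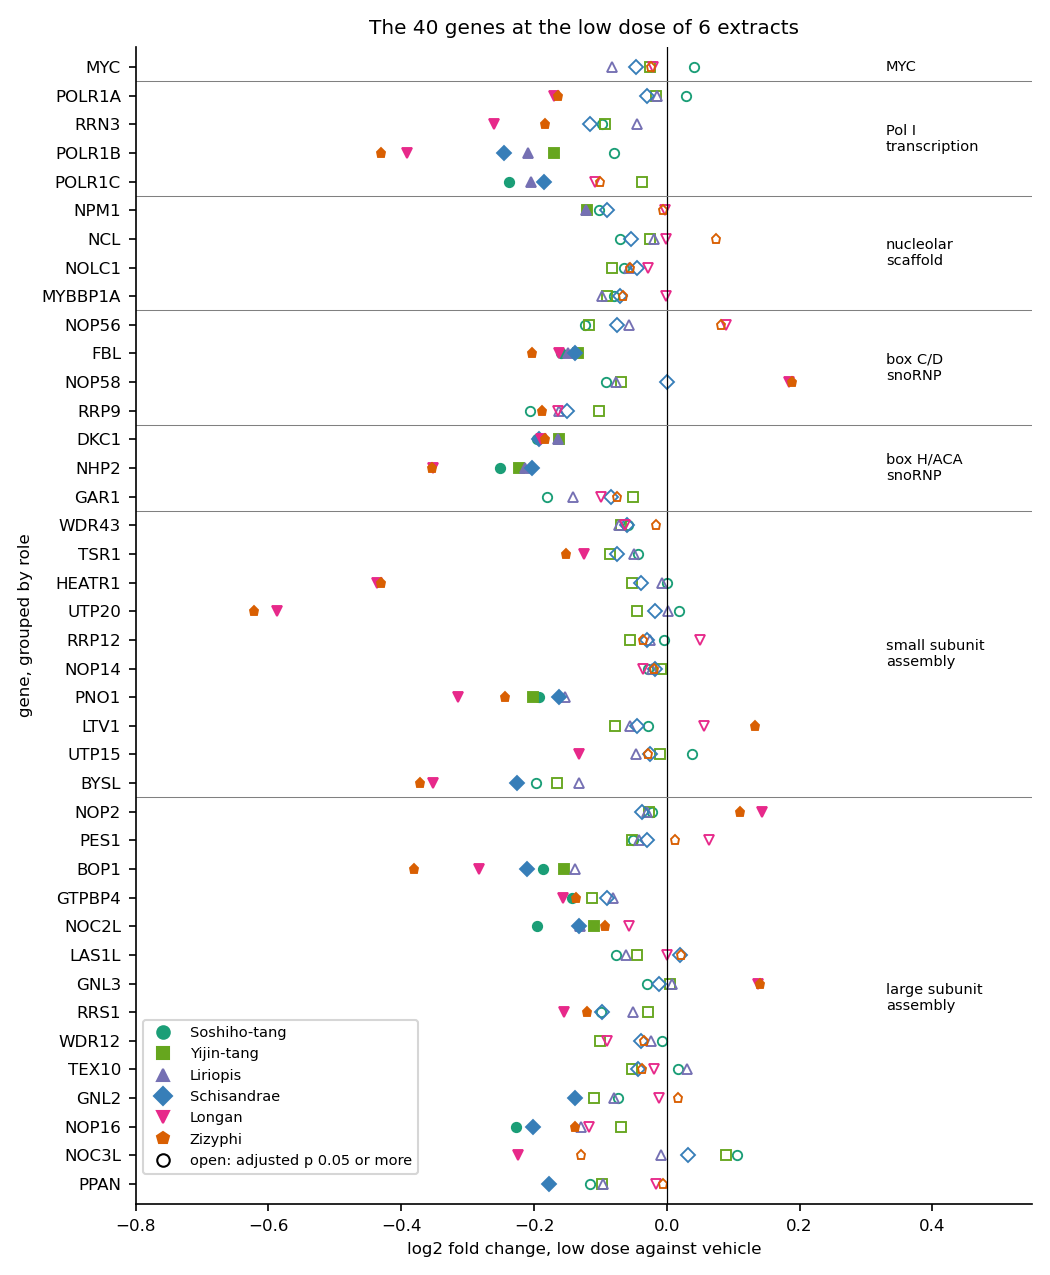
Log2 fold change of each of the 40 genes (rows, grouped by role) at the low dose of 6 extracts against the shared 3 vehicle libraries. Each mark is 1 extract and filled marks have an edgeR adjusted p under 0.05. NHP2, DKC1 and FBL are filled in all 6, and UTP20 and HEATR1 stand apart for Longan and Zizyphi at -0.62 to -0.43.

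Set 10 stood apart in UTP20 and HEATR1, and was low in POLR1B. UTP20 and HEATR1 encode very long scaffold proteins of the small subunit processome, and HEATR1 also takes part in polymerase I transcription. UTP20 was 157, 143 and 154 CPM in vehicle. With Zizyphi it was 106, 98.6 and 108 CPM at the high, 110.0, 85.7 and 109.6 CPM at the medium and 106, 80.8 and 105 CPM at the low dose. All 9 of these libraries lay below every vehicle library and below every library used of sets 8 and 9, the lowest of which was 121 CPM. With Longan it was 153, 98.4 and 80.0 CPM at the high, 157, 106 and 85.8 CPM at the medium and 103 and 97.3 CPM at the low dose. Replicate 1 of the high and the medium dose lay at the level of vehicle, and the other 6 libraries used lay at the level of Zizyphi.

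Against vehicle, UTP20 changed by -0.45 ± 0.15 (SE) with Longan high (edgeR adjusted p = 0.042) and -0.53 ± 0.15 (SE) with Zizyphi high (edgeR adjusted p = 0.011). Low-dose changes were -0.59 ± 0.17 (SE) (edgeR adjusted p = 0.01) and -0.62 ± 0.15 (SE) (edgeR adjusted p = 0.0023). The Longan high call was lost without any 1 vehicle library, without Longan high replicate 2 (edgeR adjusted p = 0.18) or 3 (-0.25; edgeR adjusted p = 0.36), and with all 54 libraries (edgeR adjusted p = 0.34). The Longan low call was lost without Longan low replicate 2 (edgeR adjusted p = 0.11). The Zizyphi high call was lost with all 54 libraries (edgeR adjusted p = 0.12).

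HEATR1 followed the same order: 165, 162 and 168 CPM in vehicle, 129.6, 125 and 137 CPM with Zizyphi high and 164, 128 and 109.6 CPM with Longan high. Again only Longan replicate 1 was within the vehicle range. Its changes were -0.29 ± 0.10 (SE) with Longan (edgeR adjusted p = 0.037) and -0.32 ± 0.10 (SE) with Zizyphi (edgeR adjusted p = 0.013), and both were lost with all 54 libraries (edgeR adjusted p = 0.8 and 0.62). The Longan call was also lost without any 1 vehicle library or Longan high replicate 2 or 3 (-0.15 without replicate 3), and the Zizyphi call without Zizyphi high replicate 2 (edgeR adjusted p = 0.063). POLR1B was 62.4, 61.1 and 62.3 CPM in vehicle, 50.2, 46.6 and 48.3 with Longan high and 44.9, 49.9 and 49.9 with Zizyphi high. Here Longan replicate 1 was low like the rest (-0.35 ± 0.05 (SE); edgeR adjusted p = 3.6e-06, and -0.34 ± 0.05 (SE); edgeR adjusted p = 1.3e-06). BYSL, next in size in both extracts, changed by -0.29 ± 0.06 (SE) with Longan (edgeR adjusted p = 0.0015) and -0.32 ± 0.06 (SE) with Zizyphi (edgeR adjusted p = 0.00029). The 4 calls of POLR1B and BYSL were lost with all 54 libraries (edgeR adjusted p = 0.34 and 0.23 for POLR1B, 0.35 and 0.17 for BYSL). NOP2, the other member called higher than vehicle with Zizyphi besides MYC, was 172, 173 and 169 CPM against 158, 159 and 160.2 CPM (0.12 ± 0.03 (SE); edgeR adjusted p = 0.0057, and 0.62 with all 54 libraries). The 6 libraries of Polygalae and Aucklandiae in set 11 were low too, from 83.8 to 113 CPM in UTP20, from 81.6 to 131 CPM in HEATR1 and from 45.2 to 48.8 CPM in POLR1B. At the low dose of Aucklandiae, UTP20 (-0.82) and HEATR1 (-0.67) were the 2 members past 1.5-fold lower than vehicle (2.2% of all genes).

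Other values moved with set 10 as well. Mitochondrial genes took 13.9 to 18.8% of counts in its libraries used, against 11.5 to 11.8% in vehicle, and the length slope given above was -0.091 to 0.020 against -0.020 to -0.005. The left-out Longan low replicate 3 had 8.16% and -0.45. Longan high and medium replicate 1 had, among the libraries used, the 2 highest slopes of the set (0.020 and 0.014) and its 2 lowest mitochondrial shares (14.1 and 13.9%). Their part in the levels of UTP20 and HEATR1 was not tested. Over the 40 members, the log2 change of Longan high against vehicle and log2 exonic length had a Pearson r of -0.13, a description over genes that share their libraries.

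**Figure D4:**
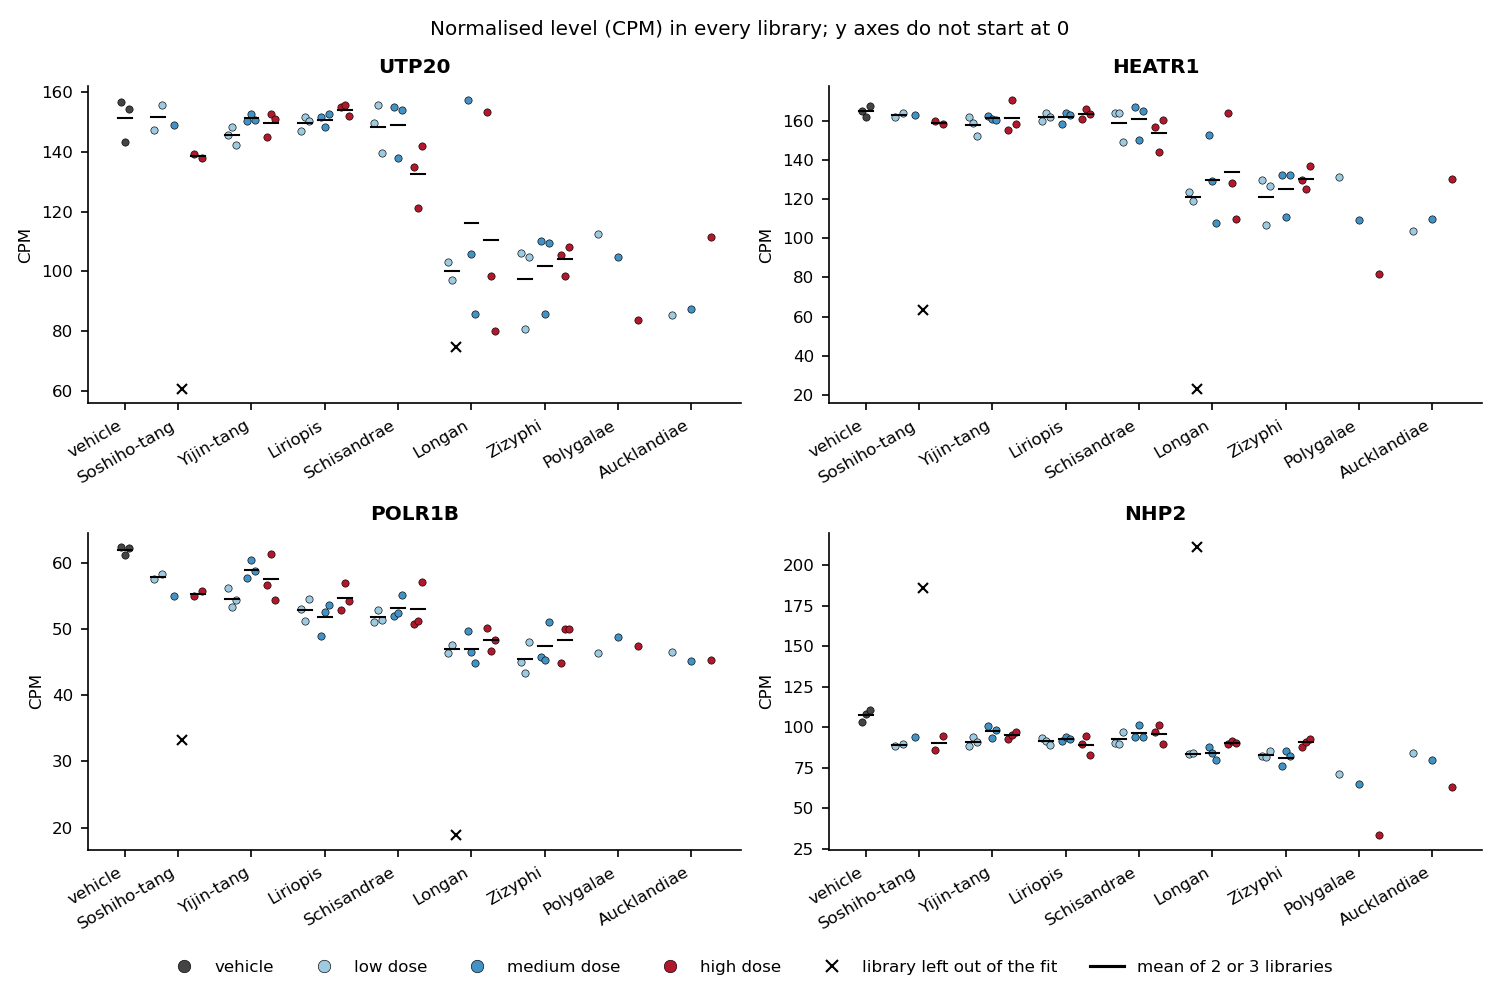
Level (CPM, y axes not from 0) of UTP20, HEATR1, POLR1B and NHP2 in each library, drawn as in the plot of MYC. UTP20 lies between 80.0 and 110 CPM in the set 10 libraries used except in replicate 1 of Longan high and medium (153 and 157 CPM), and NHP2 is highest in vehicle (104 to 110.4 CPM) among the libraries used.

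Among the 104 other ribosome biogenesis genes, 33 were lower and 3 higher than vehicle with Soshiho-tang high, 26 and 1 with Schisandrae, 29 and 7 with Zizyphi, 17 and 8 with Longan, 6 and 1 with Liriopis and 4 and 1 with Yijin-tang. Of all genes, 11.3, 4.92, 12.8, 8.26, 4.65 and 4.13% were lower in the same order. Higher were 10.2% of all genes with Soshiho-tang and 9.29% with Zizyphi. For the other extracts this share is not given here, so their genes called higher stand without a background. URB2, of large subunit assembly, was called lower in all 6, for example -0.53 ± 0.08 (SE) with Soshiho-tang (edgeR adjusted p = 4.1e-06) and -0.52 ± 0.07 (SE) with Zizyphi (edgeR adjusted p = 1.6e-06). MDN1, a giant ATPase that strips factors from the large subunit, led in set 10 with -0.62 ± 0.20 (SE) (edgeR adjusted p = 0.036) and -0.96 ± 0.21 (SE) (edgeR adjusted p = 0.00092). DDX10, a helicase of the small subunit pathway, was called higher in 5 (not with Schisandrae), most with Longan (0.23 ± 0.04 (SE); edgeR adjusted p = 2.3e-05). In the MAX network MNT was higher than vehicle with Soshiho-tang (0.47 ± 0.08 (SE); edgeR adjusted p = 1.5e-05), Liriopis (0.44 ± 0.07 (SE); edgeR adjusted p = 6.0e-05), Schisandrae (0.48 ± 0.07 (SE); edgeR adjusted p = 5.1e-06), Longan (0.38 ± 0.07 (SE); edgeR adjusted p = 0.00026) and Zizyphi (0.53 ± 0.07 (SE); edgeR adjusted p = 7.4e-07). The MAX partner MGA was lower with Longan (-0.66 ± 0.18 (SE); edgeR adjusted p = 0.014) and Zizyphi (-0.83 ± 0.19 (SE); edgeR adjusted p = 0.0013). Of the 29 MYC targets, 14 were lower with Soshiho-tang, 11 with Schisandrae, 8 each with Longan and Zizyphi and 7 each with Liriopis and Yijin-tang, led in 4 of the 6 by the mitochondrial chaperone HSPE1, for example -0.51 ± 0.07 (SE) with Soshiho-tang (edgeR adjusted p = 1.2e-07). Of these named calls, all 54 libraries kept MNT with Soshiho-tang (edgeR adjusted p = 0.0231), Schisandrae (0.0283) and Zizyphi (0.00749), and MDN1 (0.0250) and MGA (0.0280) with Zizyphi. Calls among the other ribosome biogenesis genes then numbered 4 with Soshiho-tang, 3 with Zizyphi, 2 with Schisandrae and 0 with the other 3 extracts.

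The largest changes of the members were in Polygalae Radix, where each dose is 1 library, so the values have no replicate check and no test. Of the 40 members, 12 were at least 1.5-fold lower at 380 than at 15.2 µg/mL and 0 were higher, while 17.2% of all genes were that much lower and 10.5% higher. Their order with dose, in CPM scaled by TMM, was split: 19 members were lower at each step, 12 were higher at each step and 9 were in neither order. Scaling by total counts in place of TMM moved the median of all genes from -0.01 to 0.22 and the members' count to 8 lower and 8 higher, when 9.56% of all genes were lower and 26.1% higher. For the log2 ratios of high against low dose below, the value with TMM stands first and that with total counts follows it.

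The scaffold genes had the lowest median by role (-1.07, and -0.71 with total counts). NPM1 was 1792, 1514 and 792 CPM at the low, medium and high dose, 2.26-fold lower at the high dose (log2 ratio -1.18, and -0.81 with total counts). NCL was 1521, 1236 and 634 CPM and 2.40-fold lower (-1.26 and -0.90). These are the 2 members highest per kilobase, and both stepped down at each dose. NOLC1 was 269, 234 and 138 CPM (-0.96 and -0.60).

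LAS1L, the endonuclease that cuts the spacer between the 2 RNAs of the large subunit, had the largest difference: 117, 81.3 and 39.4 CPM, 2.93-fold lower (-1.55 and -1.19). BOP1 was 116, 85.1 and 48.3 CPM (-1.24 and -0.88). In PES1, its partner, the values were 135, 119.6 and 70.7 CPM (-0.92 and -0.56), while WDR12, the third protein of that complex, was 54.4, 58.4 and 49.9 CPM with a direction that turned between scalings (-0.12 and 0.23). NOC2L was 123, 101 and 55.6 CPM (-1.13 and -0.77). So within large subunit assembly 4 of 14 genes were past 1.5-fold lower and the median was -0.10, but with total counts 3 were lower, 3 were higher and the median was 0.25.

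RRP12, which helps export and mature the small subunit, was 98.7, 70.9 and 44.1 CPM (-1.14 and -0.79). NHP2 was 70.9, 65.0 and 33.2 CPM (-1.07 and -0.72), but DKC1 and GAR1 of the same particle did not step down: DKC1 was 138, 132 and 138 CPM and GAR1 was 18.1, 21.8 and 19.5 CPM. Core proteins of 1 particle thus differed in dose order. The same held for box C/D, where FBL was 267, 232 and 166 CPM (-0.68 and -0.32) and NOP56 was 334, 369 and 378 CPM (0.18 and 0.54). The last 2 of the 12, NOP14 and HEATR1, had log2 ratios of -0.70 and -0.68 (-0.34 and -0.32 with total counts).

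MYC went the other way. It was 141, 149 and 198 CPM at the low, medium and high dose, 1.40-fold higher at the high dose (0.49, and 0.85 with total counts). PPAN (0.49 and 0.84), WDR43 (0.41 and 0.78) and POLR1C (0.41 and 0.76) were the members next above 0. WDR43 was 187, 216 and 249 CPM. Of the polymerase I genes 0 of 4 were past 1.5-fold, with a median of 0.14, and with total counts 2 of 4 were higher, with a median of 0.50.

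The other lists were mixed as well. Of 104 other ribosome biogenesis genes, 26 were at least 1.5-fold lower, led by EBNA1BP2 (-1.69 and -1.34) and NOC4L (-1.31 and -0.96), and 5 higher, led by EMG1 (0.86 and 1.22) and POLR1D (0.77 and 1.13). With total counts 11 were lower and 17 higher. Of 29 MYC targets, 17 were lower, led by lactate dehydrogenase LDHA (-2.32 and -1.96) and the chaperone HSPD1 (-1.95 and -1.59), and 2 were higher (13 and 3 with total counts). Of 11 network genes 4 were higher, led by MNT (0.92 and 1.28) and MYCL (0.77 and 1.06), and 0 lower (5 and 0 with total counts). Beside all 3 lists, 17.2% of all genes were that much lower and 10.5% higher. With total counts these shares were 9.56% lower and 26.1% higher. Beside these values, the summed epithelial markers were 1280 CPM at the high, 4871 CPM at the medium and 7728 CPM at the low dose, the fibroblast sum was 20.8, 39.0 and 45.6 CPM and the leukocyte sum 4.46, 19.1 and 18.7 CPM, and the length slope was 0.079, -0.005 and -0.002. The part of these shifts in the members' values was not tested.

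At the medium dose of Polygalae none of the 40 members was past 1.5-fold from the low dose (1.96% of all genes). At the low dose 1 was past it from vehicle, NHP2 with -0.59, against 1.25% of all genes. At the high dose 15 members were past 1.5-fold lower than vehicle and 0 higher (18.4% of all genes were lower), with a median of -0.33. With total counts these became 11 lower and 6 higher, with a median of 0.02, while 10.5% of all genes were lower and 26.6% higher.

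Aucklandiae Radix, also with 1 library a dose, had 0 members past 1.5-fold between 370 and 14.8 µg/mL (6.67% of all genes) and 0 between 74 and 14.8 µg/mL (0.977%), but in the first comparison 33 of 40 were below 0 and the median was -0.15 (28 of 40 and -0.08 with total counts). MYC was 141, 145 and 168 CPM at the low, medium and high dose (0.25, and 0.33 with total counts). POLR1A, the largest polymerase I subunit, was 189.8, 220.4 and 238 CPM (0.33 and 0.41), UTP20 85.5, 87.3 and 111 CPM (0.38 and 0.45) and HEATR1 103, 109.8 and 130.4 CPM (0.33 and 0.41). In CPM scaled by TMM, these 4 were the members higher at each step, while 16 were lower at each step and 20 were in neither order. POLR1A, UTP20 and HEATR1 have long transcripts (13519, 10024 and 9049 exonic bases), and the length slope of the libraries was -0.087 at the low, -0.057 at the medium and 0.005 at the high dose. The lowest were NHP2 at 84.3, 79.6 and 62.9 CPM (-0.42 and -0.34) and LTV1, a small subunit export factor, at 46.3, 42.1 and 35.4 CPM (-0.38 and -0.30). The epithelial sum was 5748 CPM at the high and 8339 CPM at the low dose, the fibroblast sum 31.4 and 49.1 CPM and the leukocyte sum 32.5 and 16.0 CPM. The part of the length slope and of these sums was not tested. Against vehicle 2 of 40 were past 1.5-fold lower at the high dose (4.19% of all genes): NHP2 (-0.76) and BYSL (-0.60).

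**Figure D5:**
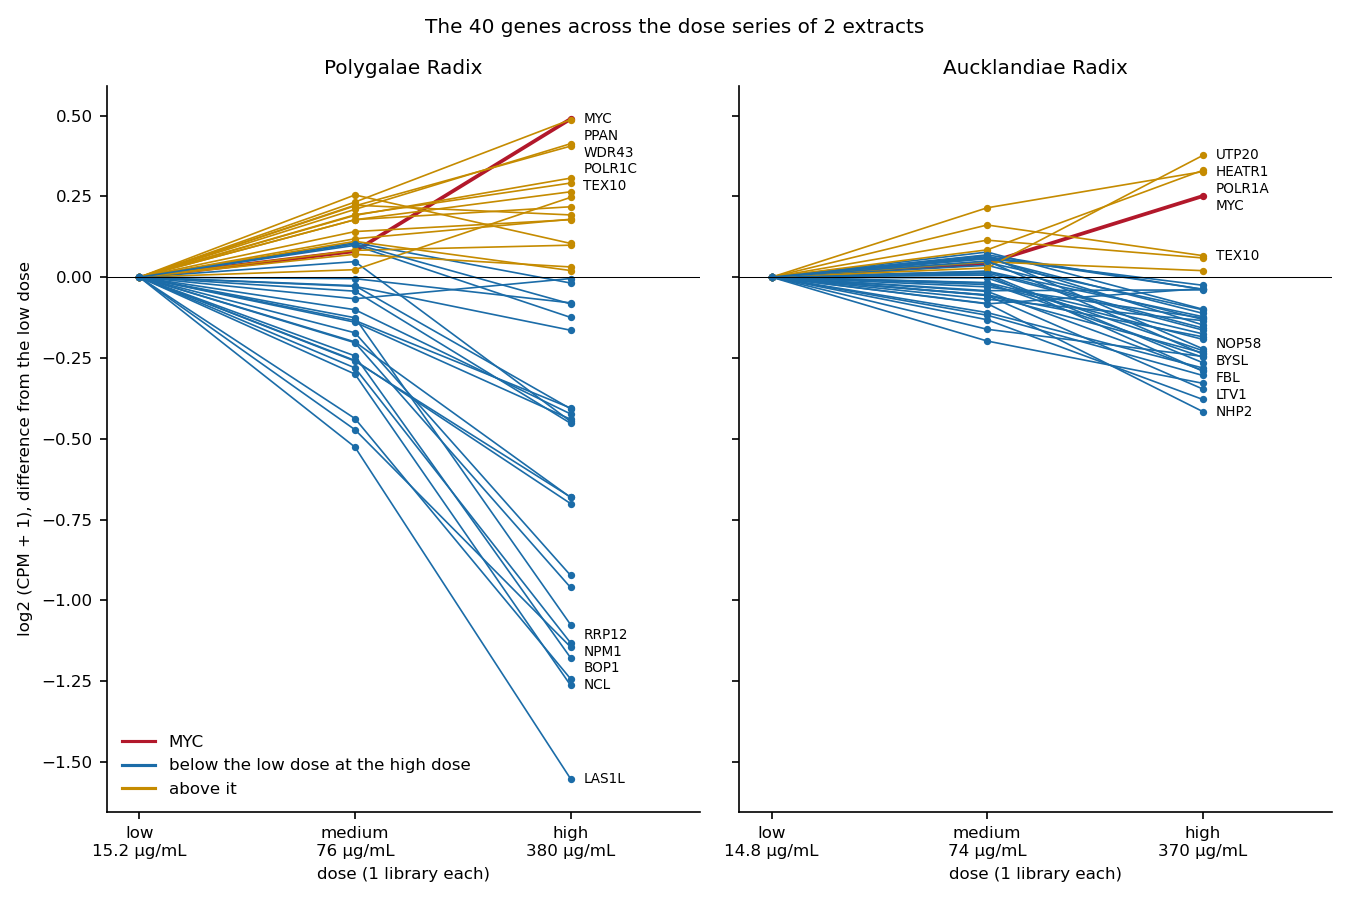
Log2 (CPM + 1) of each of the 40 genes at 3 doses of Polygalae and Aucklandiae, less its value at the low dose, with 1 library per point and the 5 most extreme genes named at each end. With Polygalae, LAS1L ends at -1.55 and MYC at 0.49, and with Aucklandiae all genes end between NHP2 at -0.42 and UTP20 at 0.38.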

How the data were processed

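RNA sequencing of A549 cells gave 1 table of 60 libraries. RSEM 1.3.3, STAR 2.7.3a and Trim Galore 0.6.5 are among the tools listed, with GRCh38 as the build and no settings, per the submitters' processing notes. The deposited values are expected counts per Ensembl gene, of which 10.5% were not whole, and they were rounded here. Whether the counting used strand is not given in the sources used here. Symbols came from a supplied reference table (56558 of 60675 identifiers), and exonic lengths and overlaps from GENCODE 29 (57055 identifiers).

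The 40 members and all lists of other genes were chosen with earlier results of these data known, and so was the choice to leave out 2 libraries. The quasi-likelihood test of edgeR 4.0.16 (R 4.3.3) was fitted to 52 libraries of 19 groups with TMM scaling and its filter on low counts by group, and p-values were adjusted by Benjamini and Hochberg over all 18228 genes, in 21 comparisons with a threshold of 0.05. CPM were scaled by TMM over 60 libraries. Single libraries were compared as ratios of log2 (CPM + 1) with a 1.5-fold limit and no test. On simulated data the test recovered 48% of 1.2-fold and 93% of 1.5-fold changes for Soshiho-tang high against low dose (18202 genes), and 64% and 96% for Yijin-tang (18205 genes). Alternatives were all 54 libraries, DESeq2 1.42.0, no filter, a replicate block, each replicate left out, 0.1 CPM added, and, chosen after seeing the data, 2 other scalings of the single libraries. Named were MYC, the 4 called members per direction with the largest changes per comparison (3 between extracts) and up to 2 called genes per direction of each other list; other genes were named after their values were seen. Library totals of 18002661 to 33831747 counts limit the precision of the lowest genes most.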

Additional observations from a re-analysis of the deposited data

Results flagged for a closer look

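In 2 members, every high-dose library lay on one side of the low-dose libraries in 1 extract and on the opposite side in the other extract of the same set. LTV1 had a log2 change between high and low dose of -0.10 with Soshiho-tang and 0.09 with Yijin-tang. NOP14 had -0.087 with Schisandrae Fructus and 0.048 with Liriopis seu Ophiopogonis Tuber. Neither gene passed edgeR's test against the low dose in either extract, and the difference between the extracts' dose effects was not tested. How many of all 18228 genes tested show such a pattern was not counted, so the 2 members cannot be set against a background.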

How the results depend on the processing

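The calls depended most on which libraries entered the fit. With all 54 libraries, members called against the low dose numbered 0 with Soshiho-tang, Schisandrae and Zizyphi and 6 with Longan (18.8% of all genes). At the high dose against vehicle they numbered 5 with Soshiho-tang, 1 each with Longan and Zizyphi and 0 with Yijin-tang, Liriopis and Schisandrae. At the low dose against vehicle they numbered 10 with Longan, 3 with Zizyphi and 0 with the other 4, and between extracts 0 for Yijin-tang against Soshiho-tang and for Liriopis against Schisandrae. In that fit 8 of the members called in Longan low against vehicle changed sign: FBL 0.17, NOP2 -0.080, DKC1 0.31, NHP2 0.28, BOP1 0.026, RRS1 0.13, GNL3 -0.073 and GTPBP4 0.14. The fit then contains Longan low replicate 3. Of all calls of members in the 21 comparisons, 18 held, 164 were lost and 8 changed sign with all 54 libraries. Lost were 51 without the filter, 8 with DESeq2 and 4 with the replicate block, with no change of sign in these 3.

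Without the filter, where more genes are tested, 2 members were called with Soshiho-tang against its low dose (3.92% of all genes). There were 2 between Yijin-tang and Soshiho-tang and 3 between Liriopis and Schisandrae. DESeq2 called 2 each with Schisandrae and Zizyphi against the low dose and 1 between Longan and Zizyphi. With the replicate block these were 2, 4 and 1. The replicate numbers showed no general pairing: same-numbered libraries of a set had a median correlation of deviations of -0.000831 to 0.00917. Single pairs of set 10 were higher, with 2 of 40 same-numbered pairs above 0.1 and the highest at 0.36. Of its differently numbered pairs 5 of 80 were above 0.1, the highest at 0.15. UTP20 in Longan high and medium was 153 and 157 CPM in replicate 1, 98.4 and 106 in replicate 2, and 80.0 and 85.8 in replicate 3.

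Leaving out 1 replicate at a time gave, against the low dose, 2 to 5 members with Soshiho-tang, 0 to 2 with Schisandrae and 0 to 3 with Zizyphi. At the high dose against vehicle it gave 15 to 21 with Soshiho-tang, 4 to 6 with Yijin-tang, 3 to 10 with Liriopis, 11 to 21 with Schisandrae, 6 to 11 with Longan and 14 to 18 with Zizyphi. At the low dose it gave 2 to 7, 2 to 5, 3 to 6, 5 to 8, 10 to 17 and 16 to 19 in the same order. Between extracts it gave 1 to 6, 1 to 5 and 0 to 1. Where a group was left with 1 library, that library is assumed to vary like the others.

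With size factors of the DESeq2 type, 0 members were past 1.5-fold between Polygalae low and vehicle and 1 between Aucklandiae high and vehicle, and scaling by total counts also gave 1 there. Adding 0.1 CPM in place of 1 CPM moved none of the 8 single-library counts by over 1.5 times. The depth of 1 library per dose allows no test of either extract.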
